A study of Homo sapiens with 22 samples.

Results

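Aminoacyl-tRNA synthetases attach each amino acid to its tRNA and so supply the substrates of translation. Human cells keep largely separate sets for the cytosol and for the mitochondrion, both encoded in the nucleus, with GARS1 and KARS1 giving the enzyme of both compartments. The members studied here were 35 synthetase genes, 19 cytosolic and 16 mitochondrial (those whose symbol ends in 2), found by current or older symbol among the 17165 genes of the deposited table. All 35 were listed, and all 35 passed the filter on low values, with no library below 1.19 CPM, the read count of a gene scaled to the library's total.

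The cells were PC9, an established human lung adenocarcinoma line that grows on signals from a mutated, active EGFR. EGFR is a receptor tyrosine kinase, blocked reversibly by the quinazoline gefitinib and irreversibly by the pyrimidine WZ4002. The 22 libraries of polyadenylated RNA form 11 groups of 2. Parental cells received gefitinib, WZ4002 or vehicle. WZ4002 or vehicle was also given to PC9-GR2 and to PC9-GR3 cells, called GR2 and GR3 here. Gefitinib-tolerant cells received gefitinib or vehicle, and WZ4002-tolerant cells received WZ4002 or vehicle. Cells were collected after 24 h, and the labels state 1 mM for the inhibitors, a unit that is in doubt. The labels do not say whether the derivatives are single clones, how the tolerant cells were obtained, or whether the 2 libraries of a group were grown apart. Every p-value below therefore rests on library-to-library spread that may be no more than technical.

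Sequencing depth, estimated from the step between low CPM values, was 23.6 to 49.6 M reads per library, and the listed genes took 14.4 to 31.8 M of them. The 2 libraries of a group differed by more than sampling noise, least in vehicle-treated GR2 cells (chi-square per gene 3.77) and by 21.9 to 96.8 elsewhere. Vehicle-treated GR3 cells had the highest of these values, and some results below rest on 1 library of that pair. The 5 epithelial markers were all listed, at a summed 1949 to 7198 CPM, while leukocyte markers summed to 0.1 to 7.22 CPM, with PTPRC, CD3E, LYZ and CD79A not listed. Fibroblast markers summed to 5.39 to 20.2 CPM, endothelial markers to 4.75 to 38.2 CPM and the alveolar markers, which mark the tissue of origin, to 0.51 to 30.4 CPM.

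Many cytosolic synthetase genes are reported targets of ATF4, the transcription factor of the amino acid and stress response, which binds with C/EBP partners to an element whose core reads TGATGNAA. When amino acids are short or the pathway is active, ATF4 raises synthetases together with amino acid transporters and biosynthetic enzymes. The 11 cytosolic members reported as ATF4 targets were AARS1, CARS1, EPRS1, GARS1, IARS1, MARS1, NARS1, SARS1, TARS1, WARS1 and YARS1, and the other 8 were FARSA, FARSB, HARS1, KARS1, LARS1, QARS1, RARS1 and VARS1.

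A promoter of 300 bases, 250 before and 50 after the start, was found in RefSeq (GRCh38.p14) for 30 of the 35 members. The core TGATGNAA, read on both strands, was present in 6 of 16 cytosolic and 1 of 14 mitochondrial promoters, against 3.617% of 35116 promoters of that length. The matches are shown because the element is the one described for ATF4, and FARSB, with a fall among the deepest, has a promoter in the table but no match. Each window of 30 bases is printed on the strand of its gene, with the match in capitals, and positions are counted from the start with no position 0.
AARS1, chr16:70289675-70289704, minus strand, match at -187 to -180: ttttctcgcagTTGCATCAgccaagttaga
CARS1, chr11:3057407-3057436, minus strand, match at -2 to 6: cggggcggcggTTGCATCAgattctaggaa
IARS1, chr9:92293692-92293721, minus strand, match at -13 to -6: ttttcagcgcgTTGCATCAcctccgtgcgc
MARS1, chr12:57488053-57488082, plus strand, match at -4 to 4: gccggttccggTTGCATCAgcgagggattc
NARS1, chr18:57621804-57621833, minus strand, match at 15 to 22: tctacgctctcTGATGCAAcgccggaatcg
TARS1, chr5:33440956-33440985, plus strand, match at 3 to 10: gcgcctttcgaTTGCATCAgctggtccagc
YARS2, chr12:32756076-32756105, minus strand, match at -197 to -190: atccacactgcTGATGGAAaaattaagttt
The 6 cytosolic matches carry the same 8 letters, TGATGCAA or their reverse complement TTGCATCA, while the mitochondrial match reads TGATGGAA. The E-box CACGTG was present in the promoters of IARS1, CARS2, EARS2 and MARS2, against 7.256% of all promoters, and the NRF1 core in those of FARSB, SARS1, TARS1, IARS2, MARS2 and PARS2, against 5.784%. Matches describe these letters in these windows and show no binding.

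In vehicle-treated parental cells the cytosolic members were the more abundant class. Per kilobase of exon the cytosolic members had a median of 28.8 CPM per kb (range 5.51 to 88.6, mean of 2 libraries) and the mitochondrial members 5.38 CPM per kb (range 0.520 to 55.4). GARS1, which charges glycine, was the highest cytosolic member per kb, and IARS2, the mitochondrial isoleucine enzyme, stood above the other mitochondrial ones. Changes below are log2 differences of CPM + 1 with their standard errors, and a member is said to rise or fall where the limma test, adjusted by Benjamini-Hochberg over 15485 genes, gave p below 0.05.

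The summed level of cytosolic members fell most steeply under inhibitor in GR2 cells, whose treated and vehicle libraries stand apart in the deposited columns. It was 1631 and 1686 CPM in gefitinib-treated and 1709 and 1584 CPM in WZ4002-treated parental cells, against 3553 and 3173 CPM in vehicle-treated ones. It was 1641 and 1652 CPM in WZ4002-treated GR2 cells, against 5188 and 4973 CPM with vehicle, and 1818 and 1891 CPM in WZ4002-treated GR3 cells, against 2746 and 3788 CPM with vehicle. The tolerant cells had 1970 and 1962 CPM under gefitinib against 2754 and 2436 CPM with vehicle, and 1932 and 2023 CPM under WZ4002 against 2601 and 2470 CPM with vehicle. No treated pair overlapped its vehicle pair. The 6 treated means lay between 1646 and 1977 CPM and the 5 vehicle means between 2535 and 5081 CPM, and these sums were not tested. The mitochondrial members summed to 405 to 516 CPM in the treated libraries and to 484 to 615 CPM in the vehicle libraries, with overlap in GR3 cells alone.

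**Figure D1:**
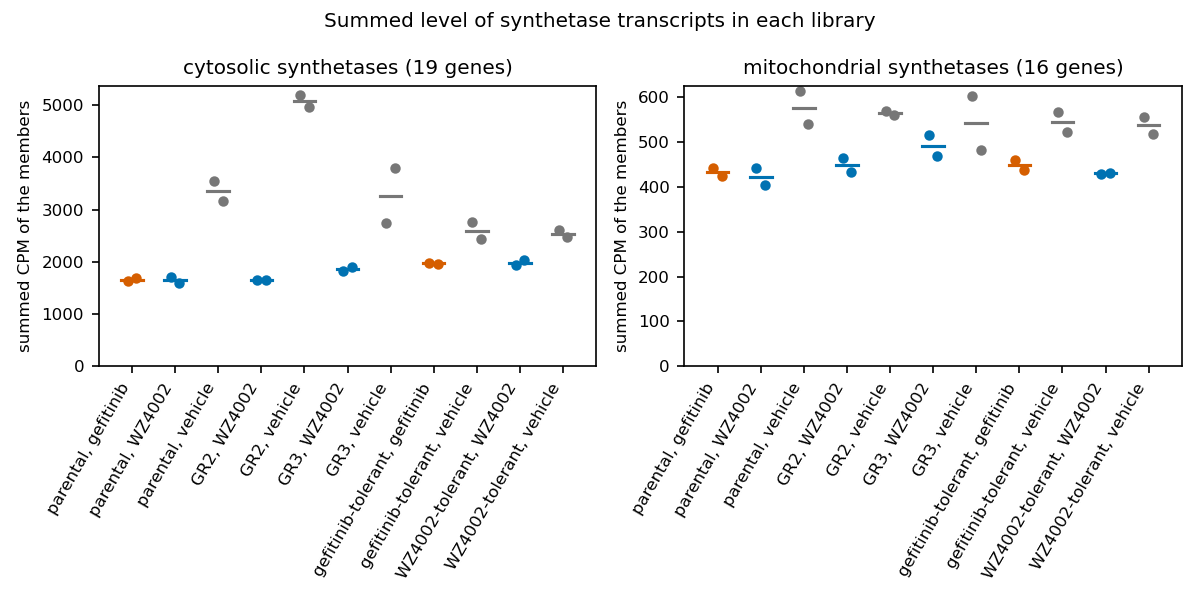
Summed CPM of the 19 cytosolic (left) and 16 mitochondrial (right) synthetases in each library. Points are libraries, bars are the means of 2, and colours mark gefitinib (orange), WZ4002 (blue) and vehicle (grey); treated libraries sit between 1584 and 2023 CPM on the left, all below the vehicle libraries of 2436 to 5188 CPM.

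In parental cells 24 h of either inhibitor lowered most cytosolic synthetases and about as many mitochondrial ones as it left uncalled. Under gefitinib 16 of 19 cytosolic members fell and 1 rose (median -0.92), and 8 of 16 mitochondrial members fell (median -0.39), against 21.8% of all genes lower, 23.5% higher and a median of 0.04 over all genes. The deepest falls were those of GARS1 and of FARSB, the beta subunit of the phenylalanine enzyme. GARS1 had 72.01 and 89.69 CPM with gefitinib, against 395 and 341 CPM with vehicle (-2.18 ± 0.21, adjusted p = 3.24e-06). FARSB had 32.2 and 31.7 CPM with gefitinib, against 165 and 127 CPM with vehicle (-2.14 ± 0.23, adjusted p = 7.42e-06). In both genes the treated libraries lay far below the vehicle ones.

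The enzymes of the 3 branched-chain amino acids fell together. VARS1, the valine enzyme, had 34.6 and 40.8 CPM with gefitinib, against 143 and 129 CPM with vehicle (-1.83 ± 0.14, adjusted p = 5.9e-07). IARS1, for isoleucine, had 77.6 and 77.2 CPM, against 278 and 250 CPM (-1.76 ± 0.15, adjusted p = 7.95e-07). LARS1, for leucine, had 59.95 and 62.93 CPM, against 149 and 128 CPM (-1.15 ± 0.11, adjusted p = 1.72e-06). The groups did not overlap in any of the 3. QARS1, for glutamine, went the other way, at 178 and 170 CPM with gefitinib, against 125 and 126 CPM with vehicle (0.47 ± 0.12, adjusted p = 0.00414). RARS1 (0.07, 95% interval -0.21 to 0.36) and SARS1 (-0.21, -0.61 to 0.19) did not pass the test.

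The 3 mitochondrial members with the lowest p under gefitinib were LARS2, CARS2 and EARS2, for leucine, cysteine and glutamate. LARS2 had 10.8 and 12.1 CPM with gefitinib, against 28.2 and 21.5 CPM with vehicle (-1.04 ± 0.18, adjusted p = 0.000278). CARS2 had 24.7 and 25.7 CPM, against 45.5 and 44.5 CPM (-0.81 ± 0.15, adjusted p = 0.000458). EARS2 had 25.5 and 24.3 CPM, against 38.2 and 36.9 CPM (-0.58 ± 0.12, adjusted p = 0.0012). The count of 8 was 5 without gefitinib library 2 and 4 without vehicle library 1, where the mitochondrial median was -0.23. With any 1 library left out, 13 of the 17 cytosolic and 4 of the 8 mitochondrial calls held. Those lost in at least 1 case were AARS1, CARS1, KARS1, WARS1, AARS2, IARS2, NARS2 and YARS2.

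WZ4002 gave 16 lower and 1 higher cytosolic members (median -1.12) and 8 lower mitochondrial members (median -0.44) in parental cells, against 22.3% of all genes lower and 25.1% higher. This comparison shares its vehicle libraries with that of gefitinib. VARS1 had 38.8 and 33.1 CPM with WZ4002 (-1.89 ± 0.14, adjusted p = 3.4e-07), IARS1 84.7 and 80.7 CPM (-1.66 ± 0.15, adjusted p = 1.14e-06) and LARS1 60.4 and 60.6 CPM (-1.18 ± 0.11, adjusted p = 1.36e-06). YARS1, the tyrosine enzyme, had 75.6 and 65.1 CPM with WZ4002, against 216 and 182 CPM with vehicle (-1.48 ± 0.13, adjusted p = 1.46e-06). QARS1 had 164 and 211 CPM with WZ4002 (0.57 ± 0.12, adjusted p = 0.00111), both above the vehicle libraries. Of the mitochondrial members, NARS2, for asparagine, had 24.9 and 18.6 CPM with WZ4002, against 39.3 and 33.8 CPM with vehicle (-0.73 ± 0.14, adjusted p = 0.000627). CARS2 (-0.87 ± 0.15) and LARS2 (-1.01 ± 0.18) also fell. With any 1 library left out 15 of the 17 cytosolic calls and 6 of the 8 mitochondrial calls held, and those of AARS1, CARS1, IARS2 and TARS2 did not always. The mitochondrial median was -0.24 without vehicle library 1.

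The inhibitors differ in scaffold and in that WZ4002 binds EGFR covalently, and at the same labelled dose and time no member differed between them. Of 35 members 0 were called between WZ4002 and gefitinib, as were 0% of all genes, with 0 members and 525 of all genes at an unadjusted p below 0.05 (limma, smallest adjusted p of a member 0.999; limma-voom on reads recovered from the CPM also called 0 members). The differences ran from -0.38 (AARS1) to 0.15. For 34 of the 35 members the 95% interval lay within 1 log2 unit of 0, and the outermost bounds were -1.001 and 0.623. AARS1, the alanine enzyme with the widest interval, had 129 and 73.6 CPM with WZ4002, against 106 and 153 CPM with gefitinib, pairs that overlap.

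In GR2 cells WZ4002 lowered 17 of 19 cytosolic members and raised 1 (median -1.75, against 0.01 over all genes), with 28.3% of all genes lower and 27.4% higher. Of the 16 mitochondrial members 8 fell and 2 rose (median -0.39). The columns of the deposited table were divided here into blocks, a new one starting where a group came back, up to 3 blocks. Both GR2 vehicle libraries stand in the third, and the WZ4002 ones in the first and second. Without the limit of 3, GR2 vehicle library 2 would open a block of its own. Treatment and block thus change together within GR2 cells, and the labels give the blocks no meaning. With a term for the blocks the cytosolic and mitochondrial medians were -1.66 and -0.44, and the part of the blocks was not tested further. GARS1 had 71.3 and 76.2 CPM with WZ4002, against 766 and 710 CPM with vehicle (-3.31 ± 0.21, adjusted p = 1.36e-08), the largest change of any member in the 6 comparisons of inhibitor with vehicle. IARS1 had 84.1 and 81.0 CPM, against 414 and 388 CPM (-2.27 ± 0.15, adjusted p = 1.36e-08). LARS1 had 57.9 and 56.5 CPM, against 188 and 177 CPM (-1.66 ± 0.11, adjusted p = 1.28e-08). YARS1 had 87.1 and 73.4 CPM, against 320 and 312 CPM (-1.97 ± 0.13, adjusted p = 2.13e-08). The treated values of these genes were near those of treated parental cells. With vehicle GARS1, IARS1, LARS1 and YARS1 all stood above vehicle-treated parental cells.

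All 11 reported ATF4 targets fell in GR2 cells (median -1.81), SARS1, for serine, among them (193 and 198 CPM with WZ4002, against 439 and 429 CPM with vehicle; -1.15 ± 0.19, adjusted p = 0.000102). QARS1 rose, at 175 and 198 CPM with WZ4002, against 96.9 and 96.6 CPM with vehicle (0.94 ± 0.12, adjusted p = 8.53e-06). Among mitochondrial members YARS2 (-0.77 ± 0.13), CARS2 (-0.83 ± 0.15) and EARS2 (-0.48 ± 0.12) fell. PARS2, for proline, had 10.0 and 10.3 CPM with WZ4002, against 7.40 and 7.14 CPM with vehicle (0.43 ± 0.16, adjusted p = 0.0296), and SARS2 had 1.95 and 2.32 CPM, against 1.61 and 1.23 CPM (0.38 ± 0.15, adjusted p = 0.0481). SARS2 is low, and 57.0% of its exon bases in GENCODE 29 lie under other genes, so its value is uncertain. Without vehicle library 1 or 2 the count of mitochondrial members that fell was 5. The calls of PARS2, SARS2 and FARSA were lost without any 1 of the 4 libraries, and those of KARS1, IARS2, NARS2 and TARS2 without some of them.

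In GR3 cells WZ4002 lowered 13 of 19 cytosolic members and raised 1 (median -0.86), where 9.87% of all genes fell and 12.1% rose. Of the 16 mitochondrial members 2 fell (median -0.12). YARS1 had 74.3 and 65.7 CPM with WZ4002, against 160 and 201 CPM with vehicle (-1.35 ± 0.13, adjusted p = 1.09e-05). IARS1 had 117 and 111 CPM, against 224 and 335 CPM (-1.26 ± 0.15, adjusted p = 3.54e-05). GARS1 had 82.6 and 78.8 CPM, against 196 and 386 CPM (-1.76 ± 0.21, adjusted p = 5.28e-05). TARS1, for threonine, had 158 and 184 CPM, against 311 and 445 CPM (-1.12 ± 0.16, adjusted p = 0.000252). In all 4 genes vehicle library 2 was higher than vehicle library 1, and both were above the treated libraries.

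QARS1 rose in GR3 cells as well, at 175 and 170 CPM with WZ4002, against 126 and 132 CPM with vehicle (0.42 ± 0.12, adjusted p = 0.0192). The 2 mitochondrial members that fell were LARS2 (-0.65 ± 0.18, adjusted p = 0.0169) and EARS2 (-0.41 ± 0.12, adjusted p = 0.0212). MARS2, for methionine, gave -0.71 ± 0.26 (adjusted p = 0.0616). The mitochondrial count was 0 without WZ4002 library 1, 1 without WZ4002 library 2 and 0 without vehicle library 1. With any 1 library left out 10 of the 14 cytosolic calls held, and those of AARS1, NARS1, WARS1 and QARS1 did not always. The cytosolic median was -0.56 without vehicle library 2, and the mitochondrial one ran from -0.31 without vehicle library 2 to 0.02 without vehicle library 1. Fitted on the 4 GR3 libraries alone, 4 cytosolic and 0 mitochondrial members fell.

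In tolerant cells 10 cytosolic members were called under either inhibitor, against 17 in parental cells. Under gefitinib 9 of 19 cytosolic members fell and 1 rose in gefitinib-tolerant cells (median -0.41), with 5 of 16 mitochondrial members lower (median -0.10) and 13.6% of all genes lower and 15.2% higher. VARS1 had 69.3 and 56.5 CPM with gefitinib, against 140 and 124 CPM with vehicle (-1.06 ± 0.14, adjusted p = 0.000293). FARSB had 87.7 and 55.2 CPM, against 200 and 144 CPM (-1.27 ± 0.23, adjusted p = 0.00147). HARS1, for histidine, had 34.9 and 31.3 CPM, against 61.5 and 52.7 CPM (-0.77 ± 0.13, adjusted p = 0.00108). LARS1 had 95.1 and 89.7 CPM, against 140 and 132 CPM (-0.55 ± 0.11, adjusted p = 0.00186).

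GARS1 in gefitinib-tolerant cells had 129 and 131 CPM with gefitinib, against 186 and 160 CPM with vehicle, a difference of -0.41 that did not pass (95% interval -0.86 to 0.04). AARS1 had 113 and 143 CPM, against 117 and 114 CPM (0.14, -0.48 to 0.76), pairs that overlap. QARS1 had 103 and 113 CPM, against 76.9 and 86.0 CPM (0.40 ± 0.12, adjusted p = 0.0185). The mitochondrial falls with the lowest p were EARS2 (-0.52 ± 0.12), YARS2 (-0.50 ± 0.13) and MARS2 (-0.99 ± 0.26). Without gefitinib library 2, or without vehicle library 1, the counts were 4 cytosolic and 0 mitochondrial members lower, and QARS1 was not called. The calls of VARS1, FARSB, HARS1 and LARS1 held with any 1 library left out.

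In WZ4002-tolerant cells WZ4002 lowered 9 of 19 cytosolic members and raised 1 (median -0.33), and 5 of 16 mitochondrial members fell (median -0.20), against 15.6% of all genes lower and 17% higher. VARS1 had 60.2 and 64.9 CPM with WZ4002, against 141 and 125 CPM with vehicle (-1.08 ± 0.14, adjusted p = 0.000222). FARSB had 65.8 and 85.9 CPM, against 193 and 161 CPM (-1.21 ± 0.23, adjusted p = 0.00161). LARS1 (-0.53 ± 0.11) and HARS1 (-0.59 ± 0.13) fell, and QARS1 rose (0.33 ± 0.12, adjusted p = 0.0401). GARS1 had 136 and 156 CPM with WZ4002, against 165 and 168 CPM with vehicle (-0.19, 95% interval -0.64 to 0.26), and WARS1, for tryptophan, 46.3 and 50.1 CPM, against 44.9 and 46.2 CPM (0.08, -0.45 to 0.61).

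MARS2 had 4.66 and 8.33 CPM with WZ4002, against 15.7 and 15.8 CPM with vehicle (-1.20 ± 0.26, adjusted p = 0.00342), with EARS2 (-0.52 ± 0.12) and LARS2 (-0.56 ± 0.18) also lower in WZ4002-tolerant cells. The cytosolic count was 5 without WZ4002 library 1 or vehicle library 1. The mitochondrial count was 1 without WZ4002 library 1, 2 without WZ4002 library 2 (median -0.13) and 1 without vehicle library 1. QARS1 was called only with all 4 libraries present, whereas VARS1, FARSB, LARS1 and HARS1 were called with any 1 left out. No mitochondrial call held in every such case.

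The reported ATF4 targets and the other cytosolic members gave different counts in tolerant cells. Of the 11 reported targets 10 fell in parental cells under gefitinib, 10 under WZ4002, 11 in GR2 and 10 in GR3 cells, and 3 (IARS1, TARS1 and YARS1) in each tolerant population. Their medians were -1.07, -1.21, -1.81 and -1.01 in those 4 comparisons, -0.26 in gefitinib-tolerant and -0.19 in WZ4002-tolerant cells. The GR3 median was -0.61 without GR3 vehicle library 2 and -1.47 without library 1, and the WZ4002-tolerant one -0.29 without WZ4002 library 2. The other 8 had 6 members lower in every one of the 6 comparisons but GR3, where 3 fell, with medians of -0.70, -0.77, -0.65, -0.33, -0.68 and -0.56, the GR3 value being -0.50 without GR3 WZ4002 library 2. Of the targets 0 fell in gefitinib-tolerant cells without gefitinib library 2 or vehicle library 1, and 1 and 0 in WZ4002-tolerant cells without WZ4002 library 1 or vehicle library 1. The 6 that fell in the tolerant populations were FARSA, FARSB, HARS1, KARS1, LARS1 and VARS1.

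**Figure D2:**
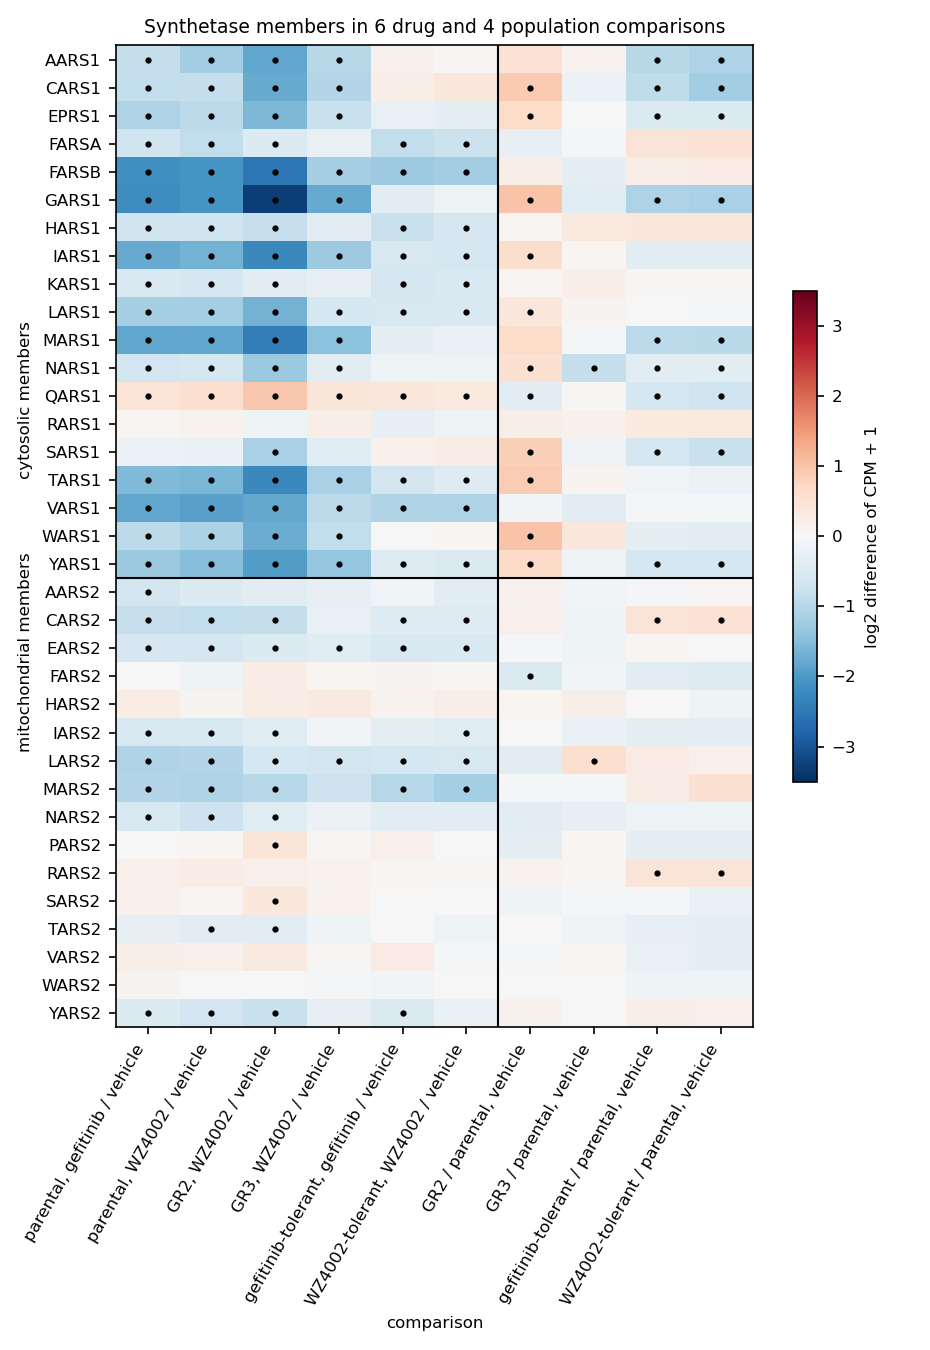
Log2 differences of CPM + 1 for the 35 members (rows; cytosolic above the line, mitochondrial below) in the 6 comparisons of inhibitor with vehicle and in 4 comparisons of vehicle-treated populations with parental cells (columns, first-named group over second). Blue is lower and red higher in the first-named group, and a dot marks an adjusted p below 0.05; GARS1 reaches -3.31 in GR2 cells, QARS1 is red in all 6 drug columns.

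Leaving gefitinib in parental cells aside, the other 5 comparisons of inhibitor with vehicle share no library. In these 5, 6 of 19 cytosolic members (FARSB, IARS1, LARS1, TARS1, VARS1 and YARS1) and 2 of 16 mitochondrial members (EARS2 and LARS2) fell in all, against 4.48% of all genes. QARS1 rose in all 5, as did 5.26% of all genes. With any 1 library left out, the calls of FARSB, LARS1 and VARS1 held in all 5, so that the 6 became 3, those of EARS2 and LARS2 became 0, and QARS1 held in parental and GR2 cells but not in the other 3 comparisons. RARS1, for arginine, was called in none, and neither were AARS2, FARS2, HARS2, RARS2, VARS2 and WARS2. HARS2 and VARS2 share 15.77% and 21.99% of their exon bases with other genes. WARS2 gave differences of -0.11 to 0.08 in the 6 comparisons.

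The shares of all genes that fell were 21.8, 22.3, 28.3, 9.87, 13.6 and 15.6% in parental gefitinib, parental WZ4002, GR2, GR3, gefitinib-tolerant and WZ4002-tolerant cells. The shares that rose were 23.5, 25.1, 27.4, 12.1, 15.2 and 17% in the same order. By catalytic class, the class I enzymes had 14 of 19 members lower in parental cells under each inhibitor and in GR2 cells, 10 in GR3 cells and 9 in each tolerant population, with QARS1 higher each time. The class II enzymes had 10, 10, 11, 5, 5 and 5 of 16 lower in the same order, and PARS2 and SARS2 higher in GR2 cells. EPRS1 was counted in class I only. Of the 7 synthetases of the cytosolic multi-enzyme complex (EPRS1, IARS1, LARS1, MARS1, QARS1, RARS1 and KARS1), 5 fell in both parental comparisons and in GR2 cells, 4 in GR3 cells and 3 in each tolerant population, while QARS1 rose and RARS1 was not called. With any 1 library left out, 10, 12, 13, 7, 2 and 2 of the class I falls, 6, 8, 7, 3, 2 and 2 of the class II falls and 4, 5, 4, 4, 1 and 1 of those of the complex held, in the same order.

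**Figure D3:**
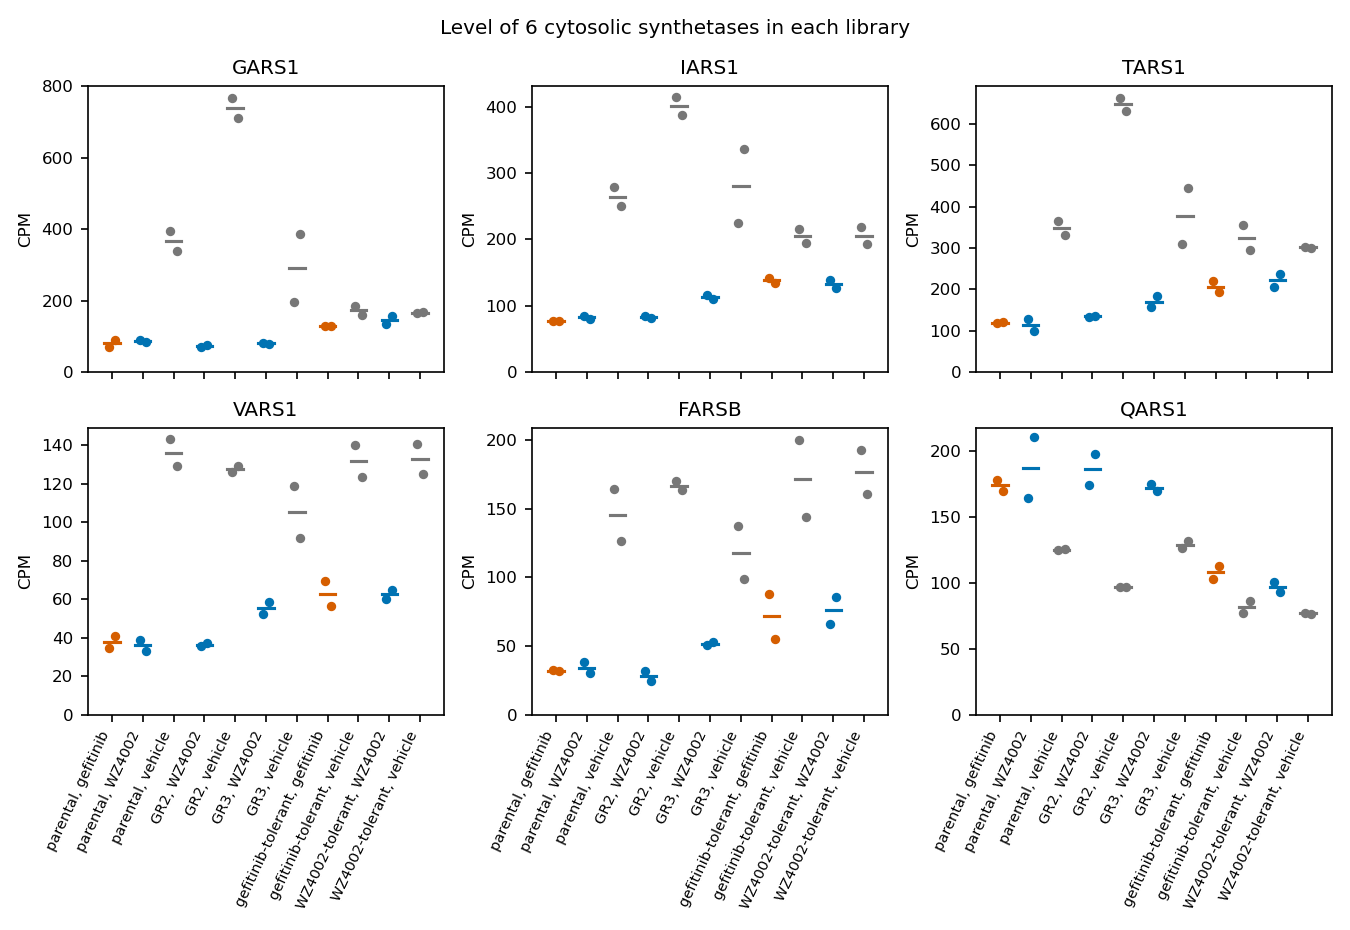
CPM of 6 cytosolic synthetases in each library; points are libraries, bars the means of 2, and treated groups stand left of the vehicle group of their population. GARS1, IARS1 and TARS1 are highest in vehicle-treated GR2 cells, VARS1 and FARSB are lower in treated than in vehicle libraries in every population, and QARS1 is higher.

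Vehicle-treated GR2 cells had higher cytosolic synthetase levels than vehicle-treated parental cells. Of 19 cytosolic members 10 were higher and 1 lower (median 0.54), and of 16 mitochondrial members 1 was lower (median -0.03), against 8.98% of all genes higher and 7.76% lower. TARS1 had 663 and 630 CPM in GR2 cells, against 365 and 332 CPM in parental cells (0.89 ± 0.16, adjusted p = 0.0019). GARS1 had 766 and 710 CPM, against 395 and 341 CPM (1.01 ± 0.21, adjusted p = 0.00464). YARS1 (0.67 ± 0.13, adjusted p = 0.00317) and SARS1 (0.82 ± 0.19, adjusted p = 0.00757) were higher, and QARS1 was lower, at 96.9 and 96.6 CPM, against 125 and 126 CPM (-0.37 ± 0.12, adjusted p = 0.0415). FARS2, the mitochondrial phenylalanine enzyme, had 6.54 and 6.51 CPM, against 9.09 and 10.3 CPM (-0.51 ± 0.16, adjusted p = 0.0419). The groups did not overlap in any of these genes.

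Of the 10 higher members 9 were reported ATF4 targets and the other was LARS1. The 12 calls were 2 without GR2 vehicle library 1, 7 without GR2 vehicle library 2 and 2 without parental vehicle library 2, and only TARS1 was called in every case. Both GR2 vehicle libraries belong to the third of the 3 blocks drawn from the order of the columns, together with 2 WZ4002 libraries. The GR2 libraries share that block only because the number of blocks was limited to 3, and the labels give the blocks no meaning. With a term for these blocks 5 of the 12 were called, and their part in the result was not tested further.

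GR3 and parental cells with vehicle differed in 2 members, where 11.1% of all genes were lower and 9.77% higher in GR3. NARS1, for asparagine, had 113 and 146 CPM in GR3 cells, against 231 and 229 CPM in parental cells (-0.83 ± 0.12, adjusted p = 0.000218). LARS2 had 45.4 and 30.4 CPM, against 28.2 and 21.5 CPM (0.57 ± 0.18, adjusted p = 0.0306). Neither pair overlapped its parental pair. The number called was 4 without GR3 vehicle library 1, 5 without GR3 vehicle library 2 and 1 without parental vehicle library 2, and NARS1 was called in each case. The class medians were 0.00 for cytosolic and -0.05 for mitochondrial members, and each changed sign with the library left out: 0.12 and -0.19 without GR3 vehicle library 1, and -0.23 and 0.08 without GR3 vehicle library 2.

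Set against GR2 cells with vehicle, GR3 cells had 10 cytosolic members lower and 1 higher (median -0.54) and 1 mitochondrial member higher, against 17.5% of all genes lower and 15.6% higher. The GR3 libraries stand in the first and second blocks of columns and the GR2 ones in the third. With a term for the blocks the cytosolic median was -0.63. NARS1 (-1.38 ± 0.12, adjusted p = 9.9e-07), GARS1 (-1.42 ± 0.21, adjusted p = 0.000111), YARS1 (-0.81 ± 0.13) and CARS1, for cysteine (-1.12 ± 0.21), were lower. LARS2 was higher, at 45.4 and 30.4 CPM in GR3 cells, against 18.4 CPM in both GR2 libraries (0.97 ± 0.18, adjusted p = 0.000597), as was QARS1 (0.41 ± 0.12, adjusted p = 0.0133). With any 1 library left out the calls of CARS1, GARS1, NARS1, SARS1, TARS1, YARS1 and LARS2 held, and those of EPRS1, IARS1, LARS1, MARS1 and QARS1 did not always. The cytosolic median was -0.32 without GR3 vehicle library 1 and -0.87 without GR3 vehicle library 2. The fit on the 4 vehicle libraries of GR3 and GR2 alone called 5 members.

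Both tolerant populations had lower levels of reported ATF4 targets with vehicle than parental cells, with which both are compared. In gefitinib-tolerant cells 9 of 19 cytosolic members were lower and 0 higher (median -0.36), and 2 mitochondrial members were higher, against 9.64% of all genes lower and 9.39% higher. In WZ4002-tolerant cells the counts were also 9, 0 and 2 (median -0.37), against 9.73% lower and 8.72% higher. Of the 9 lower members 8 were reported ATF4 targets in each population, and the other was QARS1. GARS1 had 186 and 160 CPM in gefitinib-tolerant cells (-1.09 ± 0.21, adjusted p = 0.00237) and 165 and 168 CPM in WZ4002-tolerant cells (-1.14 ± 0.21, adjusted p = 0.00189), against 395 and 341 CPM in parental cells.

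CARS1 had 29.98 and 28.17 CPM in gefitinib-tolerant cells (-0.90 ± 0.21, adjusted p = 0.00817) and 23.1 CPM in both WZ4002-tolerant libraries (-1.21 ± 0.21, adjusted p = 0.00117), against 61.1 and 49.5 CPM in parental cells. YARS1 gave -0.62 ± 0.13 in each (adjusted p = 0.00465 and 0.00482). QARS1 had 76.9 and 86.0 CPM in gefitinib-tolerant cells (-0.62 ± 0.12, adjusted p = 0.00199) and 77.4 and 76.3 CPM in WZ4002-tolerant cells (-0.70 ± 0.12, adjusted p = 0.000887), against 125 and 126 CPM in parental cells. QARS1 was thus lower in both tolerant populations although inhibitor raised it within each. The mitochondrial RARS2 had 24.4 and 23.1 CPM in gefitinib-tolerant cells (0.45 ± 0.11, adjusted p = 0.00752) and 23.1 and 24.8 CPM in WZ4002-tolerant cells (0.46 ± 0.11, adjusted p = 0.00676), against 16.7 and 17.5 CPM in parental cells. CARS2 was higher in both (0.45 ± 0.15, adjusted p = 0.041, and 0.50 ± 0.15, adjusted p = 0.0273).

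These counts depended on single libraries. The 11 calls in gefitinib-tolerant cells were 4 without their vehicle library 1, 2 without parental vehicle library 1 and 6 without parental vehicle library 2. The 11 calls in WZ4002-tolerant cells were 6 and 5 without their vehicle libraries 1 and 2, and 3 and 7 without parental vehicle libraries 1 and 2. GARS1 and QARS1 were called in every case in both populations, and CARS1 in WZ4002-tolerant cells. The RARS2 and CARS2 calls were lost in some cases, and so were those of YARS1 without parental vehicle library 1.

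Whether the responses themselves differed between populations was tested by their difference, and only cytosolic members were called. The gefitinib response of gefitinib-tolerant cells was less negative than that of parental cells in 5 of 35 members, against 1.07% of all genes higher. They were GARS1 (1.77 ± 0.30, adjusted p = 0.00724), MARS1, for methionine (1.47 ± 0.32, adjusted p = 0.0258), IARS1 (1.19 ± 0.21, adjusted p = 0.00757), YARS1 (0.84 ± 0.19, adjusted p = 0.0291) and LARS1 (0.60 ± 0.15, adjusted p = 0.0494). The count was 2 without either gefitinib-tolerant gefitinib library, either gefitinib-tolerant vehicle library, parental gefitinib library 1 or parental vehicle library 1, and 3 without parental gefitinib library 2. GARS1 and IARS1 were called in every case. MARS1 shares 13.3% of its exon bases with other genes, DDIT3 of the ATF4 pathway among them, on the other strand, and whether reads were counted by strand is not given in the sources used here.

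The WZ4002 response of WZ4002-tolerant cells was less negative than the parental one in 8 of 35 members, against 2.1% of all genes higher. The differences were 1.89 ± 0.30 for GARS1 (adjusted p = 0.00298), 1.60 ± 0.32 for MARS1 (adjusted p = 0.0116), 1.22 ± 0.30 for CARS1 (adjusted p = 0.0311) and 1.17 ± 0.23 for TARS1 (adjusted p = 0.0109). They were 1.03 ± 0.21 for IARS1 (adjusted p = 0.0106), 0.98 ± 0.19 for YARS1 (adjusted p = 0.00927), 0.82 ± 0.20 for VARS1 (adjusted p = 0.0322) and 0.64 ± 0.15 for LARS1 (adjusted p = 0.0229). Of these 8, 6 were reported ATF4 targets. The count was 3 without WZ4002-tolerant WZ4002 library 2, 5 without either WZ4002-tolerant vehicle library and 1 without parental vehicle library 1, where GARS1 remained. FARSB did not pass (0.85, 95% interval 0.15 to 1.54), and for QARS1 the interval was -0.59 to 0.12.

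**Figure D4:**
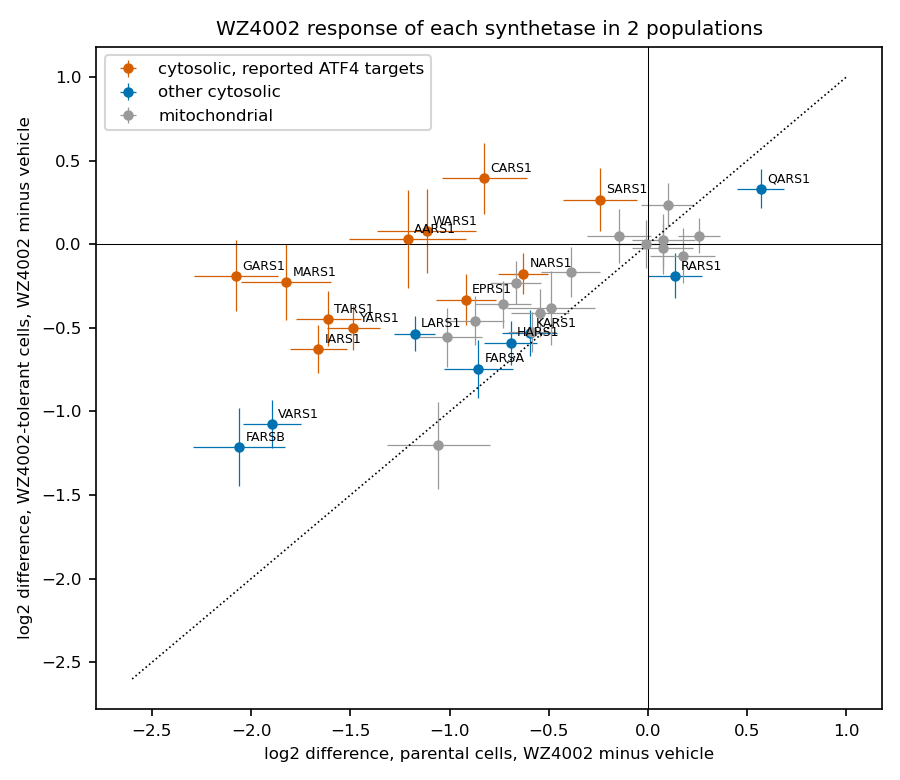
Log2 difference of CPM + 1 between WZ4002 and vehicle for each member in WZ4002-tolerant cells (vertical axis) and in parental cells (horizontal axis). Bars are standard errors and the dotted line marks equal responses; reported ATF4 targets (orange) lie above the line, GARS1 at -0.19 against -2.08, while HARS1, KARS1 and FARSA (blue) lie near it.

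Between GR2 and parental cells the WZ4002 response differed in 2 members, against 3.45% of all genes lower. GARS1 (-1.23 ± 0.30, adjusted p = 0.023) and NARS1 (-0.66 ± 0.18, adjusted p = 0.0336) fell further in GR2 cells. The count was 0 without any 1 of the 4 GR2 libraries or without parental vehicle library 2, 1 without parental vehicle library 1, and 0 with the term for runs of columns. Between GR3 and parental cells 1 member, VARS1, differed (0.99 ± 0.20, adjusted p = 0.0265), against 0.633% of all genes higher. VARS1 was not called without GR3 WZ4002 library 2, GR3 vehicle library 2, parental WZ4002 library 2 or parental vehicle library 1. The count was 2 without GR3 vehicle library 1 or parental WZ4002 library 1.

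The WZ4002 response of GR3 cells was less negative than that of GR2 cells in 9 cytosolic members and lower in 1, QARS1 (-0.52 ± 0.17, adjusted p = 0.0482), against 6.78% of all genes higher and 6.8% lower. GARS1 gave 1.55 ± 0.30 (adjusted p = 0.0032), FARSB 1.37 ± 0.33 (adjusted p = 0.0121), TARS1 1.12 ± 0.23 (adjusted p = 0.0048) and LARS1 1.05 ± 0.15 (adjusted p = 0.000353). IARS1, NARS1, VARS1, EPRS1 and YARS1 gave 0.62 to 1.00. The cytosolic median was 0.84, 0.80 with the term for runs of columns, 0.51 without GR3 vehicle library 1 and 1.08 without library 2. Fitted on the libraries of GR3 and GR2 alone, 7 cytosolic members were higher and 0 lower. Without GR2 WZ4002 library 2 the 10 calls were 6. The calls of GARS1, IARS1, LARS1, NARS1, TARS1 and VARS1 held with any 1 library left out. No mitochondrial member was called in any of the 5 differences of responses (limma, smallest adjusted p 0.0793), where 0, 3, 2, 0 and 1 of 16 had an unadjusted p below 0.05 for GR2 and GR3 against parental, GR3 against GR2, and the gefitinib and WZ4002 responses of tolerant cells.

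Genes that work beside the synthetases were counted by list, to be read against the shares of all genes given for the catalytic classes. Of 17 genes of the ATF4 pathway 12 fell and 1 rose in parental cells under gefitinib (median -1.57), 13 fell under WZ4002 (-1.68), 13 fell and 1 rose in GR2 cells (-2.17) and 12 fell in GR3 cells (-1.29). In tolerant cells 1 fell under gefitinib (median -0.07), and 1 fell and 1 rose under WZ4002 (0.13). The GR3 median was -2.06 without GR3 vehicle library 1 and -0.87 without library 2. Fitted on the GR3 libraries alone, 4 of the 17 pathway genes fell. Both tolerant medians changed sign with a library left out (0.06 without gefitinib library 2 and -0.04 without WZ4002 library 2). ATF4 itself gave -0.54 ± 0.13 and -0.63 ± 0.13 in parental cells under gefitinib and WZ4002, -0.74 ± 0.13 in GR2 and -0.63 ± 0.13 in GR3 cells, all 4 called, and 0.24 ± 0.13 and 0.13 ± 0.13 in gefitinib-tolerant and WZ4002-tolerant cells, neither called. With vehicle its difference from parental cells was -1.02 ± 0.13 in GR3, -1.58 ± 0.13 in gefitinib-tolerant, -1.36 ± 0.13 in WZ4002-tolerant and 0.42 ± 0.13 in GR2 cells, all 4 called. The cytosolic synthetase median of GR3 against parental cells was 0.00, and 0.12 without GR3 vehicle library 1 and -0.23 without library 2.

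With vehicle the pathway gave 5 of 17 higher in GR2 cells, 3 lower in GR3, 12 lower and 1 higher in gefitinib-tolerant and 11 lower and 1 higher in WZ4002-tolerant cells, all against parental cells. Of all genes 8.98% were higher in GR2 and 11.1% lower in GR3 cells. The shares were 9.64% lower and 9.39% higher in gefitinib-tolerant, and 9.73% lower and 8.72% higher in WZ4002-tolerant cells. ASNS, which makes asparagine, gave 1.52 ± 0.42 in GR2, -2.77 ± 0.42 in gefitinib-tolerant and -3.21 ± 0.42 in WZ4002-tolerant cells. The GR2 count was 0 without GR2 vehicle library 1, 1 without GR2 vehicle library 2 and 1 without parental vehicle library 2, and the GR3 count was 8 without GR3 vehicle library 2, 2 lower and 2 higher without GR3 vehicle library 1, and 1 without parental vehicle library 1. Responses of 9 of 17 genes were less negative in gefitinib-tolerant than in parental cells, against 1.07% of all genes higher. Those of 11 were less negative in WZ4002-tolerant cells, against 2.1% of all genes higher. These were 4 without gefitinib-tolerant gefitinib library 1, parental gefitinib library 1 or parental vehicle library 1, and 7 without parental vehicle library 1.

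WARS1 is also induced by interferon gamma, and it was set beside the other genes of that response. Of 6 tested interferon gamma responsive genes 5 rose in parental cells under each inhibitor, in GR2 cells and in both tolerant populations. In GR3 cells 4 rose, and 12.1 to 27.4% of all genes rose across these comparisons. The count was 1 in GR3 cells without WZ4002 library 2 and 3 in WZ4002-tolerant cells without vehicle library 1. GBP2, an interferon-induced GTPase, gave 3.70 ± 0.31 in parental cells under gefitinib and 5.18 ± 0.31 in GR2 cells under WZ4002. WARS1 had 28.7 and 33.5 CPM in gefitinib-treated parental cells, against 55.1 and 64.7 CPM with vehicle (-0.92 ± 0.25, adjusted p = 0.00733), and 32.6 and 38.3 CPM in WZ4002-treated GR2 cells, against 126 and 116 CPM with vehicle (-1.75 ± 0.25, adjusted p = 3.13e-05). In GR3 cells WARS1 also fell, and in gefitinib-tolerant and WZ4002-tolerant cells it gave 0.02 (95% interval -0.51 to 0.55) and 0.08 (-0.45 to 0.61). The WARS1 call in parental cells under gefitinib was lost without gefitinib library 1 or vehicle library 2.

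Of the 3 scaffold proteins of the multi-enzyme complex, AIMP2 fell in parental cells under gefitinib (-1.08 ± 0.19) and WZ4002 (-1.23 ± 0.19), in GR2 (-1.39 ± 0.19), gefitinib-tolerant (-0.97 ± 0.19) and WZ4002-tolerant cells (-0.84 ± 0.19), but AIMP1 was called in none of the 6 comparisons. Of 7 tested genes of tRNA export and quality control 2, 2, 2, 1, 1 and 1 fell and 1, 3, 0, 0, 1 and 0 rose in the order parental gefitinib, parental WZ4002, GR2, GR3, gefitinib-tolerant and WZ4002-tolerant, where 1 or 2 of 7 is near the share of all genes that fell. XPOT, which exports tRNA from the nucleus, fell in all 6, from -2.52 ± 0.23 in GR2 cells to -0.65 ± 0.23 in gefitinib-tolerant cells. EEF1E1, the third scaffold protein, fell in parental cells under gefitinib (-0.66 ± 0.22), in GR2 (-0.97 ± 0.22) and in gefitinib-tolerant cells (-0.83 ± 0.22). Of the elongation factors of cytosolic translation, EEF1A1 rose in gefitinib-tolerant (0.40 ± 0.13) and WZ4002-tolerant cells (0.54 ± 0.13), EEF2 rose in GR2 cells (0.32 ± 0.13), and EEF1B2 fell in parental cells under WZ4002 (-0.51 ± 0.14) and in gefitinib-tolerant cells (-0.47 ± 0.14). EEF1D fell in WZ4002-tolerant cells (-0.30 ± 0.11), and none of these factors was called in GR3 cells. Of 10 partners of mitochondrial charging and elongation (QRSL1, GATB, GATC, MTFMT, TUFM, TSFM, GFM1, GFM2, TRMU and MTO1) 4, 3, 4, 2, 4 and 3 fell in the same order, against 21.8, 22.3, 28.3, 9.87, 13.6 and 15.6% of all genes, among them the elongation factor TUFM in 5 of the 6. Of 7 tested regulators of mitochondrial biogenesis 3, 4, 3, 2, 3 and 5 fell, and 1 rose in parental cells under WZ4002. TFAM, which maintains and transcribes mitochondrial DNA, fell in all 6, from -1.15 ± 0.20 in GR2 to -0.69 ± 0.20 in GR3 cells.

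Of 5 epithelial markers 3 rose and 1 fell in parental cells under each inhibitor, 4 rose and 1 fell in GR2 cells, and 4 rose in GR3 cells. These stand against 23.5, 25.1, 27.4 and 12.1% of all genes that rose. In each tolerant population 1 of 5 rose, near the 15.2 and 17% of all genes that rose there. Their part in the synthetase results was not tested. In bulk RNA, fewer cells of a kind and less RNA per cell cannot be told apart, and CPM give shares of a library, not amounts per cell.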

How the data were processed

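RNA was made into libraries with a directional polyadenylated-RNA kit per the labels' protocols. The authors deposited 1 table of CPM (counts scaled to the library total, 2 decimals, 17165 genes, 22 libraries), and the submitters' processing notes name STAR, HTSeq and hg19 without versions; strand and multi-mapping settings are not given in the sources used here. Listed genes hold 54.6 to 64.2% of each library, and no listed value is 0, so the table had been filtered. Each library's depth was estimated as the smallest at which values below 4 CPM are whole multiples of 1 read: 99.6 to 100% of them matched to within 0.001 CPM after rounding to 2 decimals. With 2 decimals this step is not certain, so the reads served only for the depths, the comparison of paired libraries and 1 alternative.

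All 22 columns were used, with groups from the labels. Genes with CPM of at least 1 in at least 2 libraries were kept (15485), log2(CPM + 1) was fitted over all 11 groups with limma 3.58.1 in R 4.3.3 (trend, empirical Bayes), and p-values were Benjamini-Hochberg adjusted over all kept genes at 0.05. The pseudocount understates changes of low genes. A change of 1 read is small beside these levels, and intervals rest on the spread between libraries. Each gene has 1 estimate of that spread, shared by all 11 groups, so an interval does not follow the spread of its own pairs. Comparisons with vehicle-treated GR3 cells, whose pair differed most, thus have the same standard errors as other comparisons of 1 group with another. Replicate numbers come from the labels, and same-numbered libraries deviated together in some pairs of groups but not in most (20 of 55 with r over 0.1, range -0.464 to 0.633), so the block is an alternative only. In most groups libraries 1 and 2 also stand in different runs of columns, which are the blocks defined above.

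Members and lists were chosen with earlier results of these data known. Per comparison, the 4 cytosolic and 3 mitochondrial members of lowest p were named, with any called against the direction of most called members of its class; further members illustrate a stated count or contrast and were chosen after their values were seen. Exon lengths and overlaps come from GENCODE 29, and promoters from RefSeq on GRCh38.p14, with no coordinate carried to hg19. The alternatives tried were the libraries of a comparison alone, no filter, a pseudocount of 0.1, median-of-ratios scaling, the replicate block, each library left out and, chosen after seeing the data, limma-voom and a term for runs of columns. The fit was tested on simulated data.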

Additional observations from a re-analysis of the deposited data

Results flagged for a closer look

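The differences between drug responses that passed the limma test (Benjamini-Hochberg adjusted over all genes) are collected here as log2 values, each the response of the first-named population minus that of the second. For WZ4002 in GR2 minus parental cells, GARS1 gave -1.23 and NARS1 -0.66, both falling further in GR2. For WZ4002 in GR3 minus parental cells VARS1 gave 0.99. For WZ4002 in GR3 minus GR2 cells FARSB gave 1.37, GARS1 1.55, IARS1 1.00, LARS1 1.05 and TARS1 1.12. In the same comparison EPRS1 gave 0.77, NARS1 0.90, VARS1 0.88, YARS1 0.62 and QARS1 -0.52. For gefitinib in gefitinib-tolerant minus parental cells GARS1 gave 1.77, IARS1 1.19, LARS1 0.60, MARS1 1.47 and YARS1 0.84. For WZ4002 in WZ4002-tolerant minus parental cells CARS1 gave 1.22, GARS1 1.89, IARS1 1.03, LARS1 0.64, MARS1 1.60, TARS1 1.17, VARS1 0.82 and YARS1 0.98. All comparisons with parental WZ4002 libraries share those libraries and their vehicle, and both tolerant comparisons share the parental vehicle.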

How the results depend on the processing

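No called member changed direction under any alternative run. Of 198 called results of single members, those keeping their call numbered 197 without the filter, 196 with a pseudocount of 0.1, 195 with median-of-ratios scaling, 195 with limma-voom, 197 with the replicate block, 178 with a term for runs of columns and 153 with the libraries of each comparison alone. With 1 library left out 614 of 896 kept it and 282 lost it, where fewer libraries remain in the fit and a group left with 1 is assumed to vary like the others.

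Fitted on their own libraries, the counts were 4 cytosolic and 0 mitochondrial members lower in GR3 cells, 3 mitochondrial lower in gefitinib-tolerant cells, 0 between GR3 and parental and 5 between GR3 and GR2 vehicle cells. The differences of responses then gave 5 for GR2 and 0 for GR3 against parental cells, 8 for gefitinib-tolerant and 5 for WZ4002-tolerant cells; the cause was not tested. With the replicate block the differences of responses gave 4 members for GR2 and 2 for GR3 against parental cells. Whether equal replicate numbers pair the libraries is not known from the labels. With the term for runs of columns the counts were 3 mitochondrial lower in WZ4002-tolerant cells, 5 between GR2 and parental vehicle cells, and 0 (GR2) and 9 (gefitinib-tolerant) differences of responses; the cause was not tested.

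With each library left out in turn, cytosolic and mitochondrial members lower ranged over 13 to 15 and 4 to 9 in parental cells under gefitinib, 15 to 16 and 6 to 9 under WZ4002, 15 to 16 and 5 to 7 in GR2, 10 to 14 and 0 to 3 in GR3, 4 to 9 and 0 to 6 in gefitinib-tolerant, and 5 to 8 and 1 to 4 in WZ4002-tolerant cells. Members called between vehicle groups ranged over 2 to 9 (GR2 against parental), 1 to 5 (GR3 against parental), 8 to 13 (GR3 against GR2), 2 to 8 (gefitinib-tolerant) and 3 to 7 (WZ4002-tolerant), and between WZ4002 and gefitinib over 0 to 0. Differences of responses ranged over 0 to 2 (GR2), 0 to 2 (GR3), 6 to 13 (GR3 against GR2), 2 to 4 (gefitinib-tolerant) and 1 to 8 (WZ4002-tolerant).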
